A study of Arabidopsis thaliana with 12 samples.

Results

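Transcripts of 9 genes of proline synthesis, breakdown and transport were followed in whole plantlets of Arabidopsis thaliana at 0, 4, 10 and 22 °C. The genes were chosen by locus, and the deposited estimated counts of all annotated transcripts of a locus were summed. All 9 were among the 33560 annotated loci of the table, and all 9 passed the filter on low counts, which kept 21293 loci. The study asked how transcript levels in the plant change with the depth of cold.

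A library was made from 10 pooled plantlets of the ecotype Columbia-0, 14 days old and raised at 22 °C on agar plates with 0.5% sucrose, with 16 h of light and 8 h of darkness. Plates were moved to 0 °C (3 libraries), 4 °C (3 libraries) or 10 °C (3 libraries), and the controls stayed at 22 °C (3 libraries). No transgene, mutation or chemical was used in any group. The sample labels give 24 h of cold for every temperature, whereas the text of the series gives 24 h for 0 °C, 48 h for 4 °C and 72 h for 10 °C. Temperature and duration therefore cannot be told apart in any comparison that includes 4 or 10 °C. The hour of harvest and the number of chambers per temperature are not given in the sources used here. All p-values cover the spread between these pools alone.

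Proline is made from glutamate in plants and builds up in many species under drought, salt and cold. The enzyme P5CS, in Arabidopsis encoded by P5CS1 and P5CS2, turns glutamate into the intermediate glutamate semialdehyde, which closes into pyrroline-5-carboxylate, and P5CR reduces this to proline. Breakdown runs in mitochondria: proline dehydrogenase (PDH1 and PDH2) returns proline to pyrroline-5-carboxylate, and P5CDH turns that into glutamate. Ornithine aminotransferase (OAT) is a further source of pyrroline-5-carboxylate, and PROT1 and PROT2 carry proline across the plasma membrane. In the reference annotation PDH1 carries the symbol ERD5, P5CDH the symbol ALDH12A1 and OAT the symbol DELTA-OAT.

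The promoters of the paralogous enzymes of synthesis (P5CS) and breakdown (PDH) are shown first, for the genes whose shares within a pair are given below. Each is the 250 bases before the annotated start of the gene, read 5′ to 3′ on the strand of the gene from the RefSeq assembly TAIR10.1, and capitals mark a motif on either strand. The motifs searched were CCGAC, the core of the cold- and drought-responsive element bound by the CBF/DREB1 factors, ACGTG, the core of the abscisic acid response element, and ACTCAT, the proline-responsive element known from PDH1.
P5CS2 promoter, chr3:20629296-20629545, minus strand: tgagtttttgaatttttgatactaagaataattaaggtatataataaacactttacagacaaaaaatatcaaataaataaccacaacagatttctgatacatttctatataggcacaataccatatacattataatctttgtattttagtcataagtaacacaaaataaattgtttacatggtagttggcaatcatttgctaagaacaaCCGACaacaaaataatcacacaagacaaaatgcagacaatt
P5CS1 promoter, chr2:16603320-16603569, minus strand: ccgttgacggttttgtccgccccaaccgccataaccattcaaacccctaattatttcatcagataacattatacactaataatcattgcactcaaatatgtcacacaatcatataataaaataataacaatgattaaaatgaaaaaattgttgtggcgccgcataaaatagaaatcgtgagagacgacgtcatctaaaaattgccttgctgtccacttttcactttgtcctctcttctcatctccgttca
PDH2 promoter, chr5:15500876-15501125, plus strand: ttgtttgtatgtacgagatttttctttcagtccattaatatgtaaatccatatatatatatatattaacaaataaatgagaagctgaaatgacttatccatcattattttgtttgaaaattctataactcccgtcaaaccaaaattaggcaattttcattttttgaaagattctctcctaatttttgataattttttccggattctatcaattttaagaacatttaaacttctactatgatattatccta
PDH1 promoter, chr3:12451557-12451806, minus strand: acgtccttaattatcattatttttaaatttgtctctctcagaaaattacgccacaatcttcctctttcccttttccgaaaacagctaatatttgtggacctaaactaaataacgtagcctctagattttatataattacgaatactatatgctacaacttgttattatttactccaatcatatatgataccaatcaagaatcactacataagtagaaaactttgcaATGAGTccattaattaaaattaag
The P5CS2 window held a CCGAC match that begins 41 bases before the start, and the P5CS1 window held none of the 3 motifs. The P5CS1 window lies before the start of transcript 1, which held at most 2.19% of the gene's counts on average at any temperature. Transcript 4, with most of the counts, starts further downstream, at chr2:16603061. The 250 bases before that start are outside the window, so the 2 P5CS windows are not alike in position. The PDH1 window held an ACTCAT match, in capitals as its reverse complement, 24 bases before the start, and the PDH2 window held none of the 3. Among the other members, P5CR had CCGAC at 7 bases and ACGTG at 51 bases, P5CDH had ACTCAT at 117 and at 107 bases, and PROT1 had ACGTG at 203 bases before the start. Each motif was thus found in 2 of the 9 windows. Of 27443 promoter windows of this length, 12% held CCGAC, 22.9% ACGTG and 12.3% ACTCAT. None of the 3 motifs overlapped another in the 4 windows shown.

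All 9 genes differed among the 4 temperatures in edgeR's quasi-likelihood F test, with Benjamini-Hochberg adjusted p-values between 1.09e-15 for P5CS2 and 8.68e-06 for PROT2. The background was high, since 88.5% of the 21293 genes tested passed the same test. In the fit of the same 12 libraries, 4 members were higher and 4 lower at 0 °C than at 22 °C, with a direction of PDH1 that depends on the scaling. Of all genes tested, 74.3% passed in that comparison, with 35.5% higher and 38.8% lower. At 4 °C 4 members were higher and 3 lower, where 73.9% of all genes passed (36.3% higher and 37.6% lower). At 10 °C 6 were higher and 2 lower, where 64.6% of all genes passed (32.4% higher and 32.3% lower). The median log2 fold change of the 9 members was -0.02 at 0 °C, 0.07 at 4 °C and 0.18 at 10 °C, beside -0.07, -0.03 and -0.01 for all genes tested at the same temperatures. The members therefore did not move as a block, and what follows takes them by role.

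**Figure D1:**
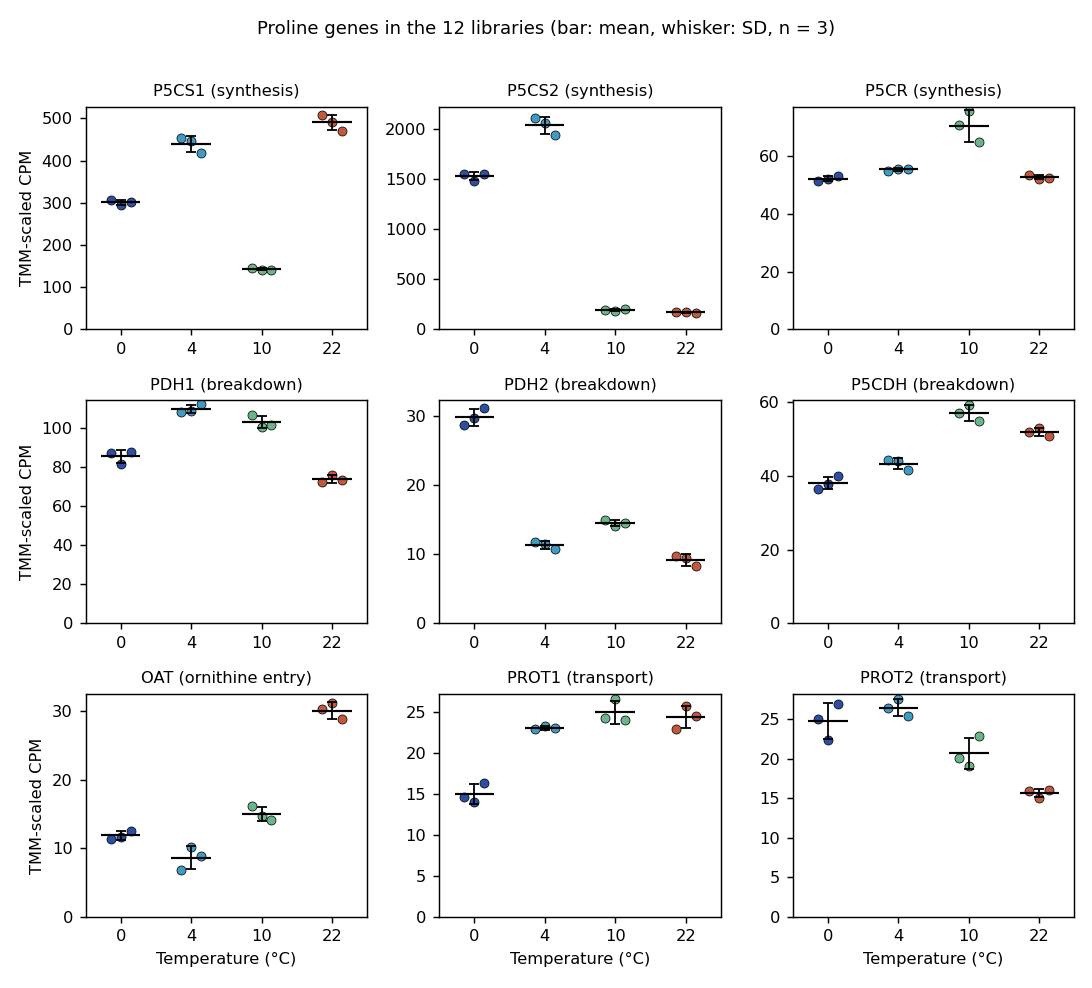
TMM-scaled CPM of the 9 genes, 1 panel per gene and 1 point per library, at 0, 4, 10 and 22 °C. Bars are means and whiskers SDs of 3 libraries. P5CS2 lies at 1487 CPM or more at 0 and 4 °C and at 203 CPM or less at 10 and 22 °C, whereas P5CS1 is lowest at 10 °C and OAT is highest at 22 °C.

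P5CS2 (locus AT3G55610, chr3:20624020-20629295, minus strand, coordinates here and below from TAIR10.1) had the largest change of the 9 genes against 22 °C. Its CPM, counts per 1000000 scaled between libraries by edgeR's TMM factors, were 1551, 1487 and 1559 at 0 °C, 2111, 2069 and 1941 at 4 °C, 197, 189.5 and 203 at 10 °C, and 176, 177 and 167 at 22 °C. The 6 libraries at 0 and 4 °C stood far above all others, and the libraries at 10 °C were narrowly above those at 22 °C without overlap. The log2 fold change against 22 °C was 3.14 ± 0.041 (SE) at 0 °C and 3.56 ± 0.042 at 4 °C, which are 8.84-fold and 11.8-fold (edgeR, adjusted p = 4.66e-15 and 2.98e-15). At 10 °C it was 0.18 ± 0.039 (adjusted p = 0.00141). The means were 1532 ± 39.4, 2040 ± 88.3, 196 ± 6.67 and 173 ± 5.17 CPM in order from 0 to 22 °C (SD, n = 3 each).

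P5CS1 (AT2G39800, chr2:16598072-16603319, minus strand), the paralog best known for proline made under drought and salt, fell at every cold temperature. Its CPM were 306, 295 and 303 at 0 °C, 454, 447 and 418 at 4 °C, 145, 141 and 141 at 10 °C, and 508, 493 and 471 at 22 °C. No 2 temperatures overlapped, and the order from low to high was 10, 0, 4 and 22 °C. Against 22 °C the log2 fold change was -0.70 ± 0.037 at 0 °C, -0.16 ± 0.037 at 4 °C and -1.78 ± 0.038 at 10 °C (edgeR, adjusted p = 3.13e-09, 0.00198 and 1.17e-12). The level at 10 °C was thus 0.290 of that at 22 °C. Summed levels of 5 leaf markers were also low at 10 °C, at 29021 to 30310 CPM per library, where they were 45677 to 49698 CPM at 0 °C, 34819 to 37496 at 4 °C and 46777 to 50233 in the controls, and 4 of the 5 were lower at 10 °C than at 22 °C. RBCS1A, the remaining one, averaged 14710 CPM at 10 °C, against 14324 CPM at 22 °C. Most of the fall in the sum was that of CAB1, which averaged 10744 CPM at 10 °C, against 24606 CPM at 22 °C. The part of these markers in the level of P5CS1 was not tested. In RNA from whole plantlets, fewer cells of a type and less RNA per cell cannot be told apart.

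The pair of P5CS genes was also compared within each library, where no scaling between libraries enters. P5CS2 made up 83.5%, 83.5% and 83.7% of the counts of both genes in the 3 libraries at 0 °C, 82.3%, 82.2% and 82.3% at 4 °C, 57.5%, 57.3% and 59.0% at 10 °C, and 25.7%, 26.4% and 26.2% at 22 °C. P5CS2 was the larger part in all 9 cold libraries and the smaller in all 3 at 22 °C, and no temperatures overlapped. On the log2 scale the ratio of P5CS2 to P5CS1 counts averaged 2.35, 2.21, 0.46 and -1.50 from 0 to 22 °C. It differed among temperatures in an exact permutation test (p = 6.49e-05, the smallest that 369600 regroupings can give, and 0.000455 after Benjamini-Hochberg adjustment over 14 tests of ratios). The ratio against 22 °C was 14.4 times as high at 0 °C, 13.1 times at 4 °C and 3.90 times at 10 °C. Each of these pairs had an exact two-sided permutation p of 0.1, the smallest that 3 against 3 libraries allow. Per base of the main transcripts the P5CS2 share was 82.9%, 81.6%, 56.8% and 25.2% from 0 to 22 °C. The coding sequences of the pair share 86.3% of their aligned bases, and their longest identical run is 53 bases. How the authors' counting assigned reads that match both genes was not tested.

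At 10 °C the P5CS2 share rested mainly on the fall of P5CS1. P5CS1 had a mean of 142 ± 2.29 CPM at 10 °C, against 491 ± 18.6 CPM in the libraries kept at 22 °C (SD, n = 3 each), while P5CS2 differed by a factor of 1.13 between these temperatures. At 0 and 4 °C the same share rested mainly on P5CS2, whose TMM-scaled levels there were 8.84 and 11.8 times that at 22 °C.

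P5CR (AT5G14800, chr5:4785960-4787996, minus strand), which makes the final step to proline and has no paralog among the members, moved little. Its CPM were 51.2, 51.8 and 52.8 at 0 °C, 54.7, 55.4 and 55.5 at 4 °C, 70.4, 75.5 and 64.6 at 10 °C, and 53.4, 52.0 and 52.4 at 22 °C. The 10 °C libraries were above all others and spread the most. The log2 fold change against 22 °C was 0.42 ± 0.048 at 10 °C (edgeR, adjusted p = 7.82e-06). It was -0.02 ± 0.049 at 0 °C and 0.07 ± 0.049 at 4 °C, where the adjusted p was 0.755 and 0.212. At 0 °C the value depended on scaling, since total counts alone gave -0.43 (adjusted p = 4.90e-06) and upper quartile factors -0.25 (adjusted p = 0.000648).

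PDH2 (AT5G38710, chr5:15501126-15504269, plus strand) had the largest rise on the breakdown side, and chiefly at 0 °C. Its CPM were 28.7, 29.7 and 31.1 at 0 °C, 11.8, 11.4 and 10.7 at 4 °C, 14.9, 14.0 and 14.5 at 10 °C, and 9.77, 9.46 and 8.21 at 22 °C. The 0 °C libraries were set apart from all others, and each pair of temperatures was without overlap. Against 22 °C the log2 fold change was 1.70 ± 0.073 at 0 °C, 0.30 ± 0.074 at 4 °C and 0.66 ± 0.073 at 10 °C (edgeR, adjusted p = 3.47e-10, 0.00255 and 4.77e-06). At 0 °C the level was 3.26 times that at 22 °C, 2.64 times that at 4 °C and 2.06 times that at 10 °C. The small rise at 4 °C lost its call with upper quartile factors (0.17, adjusted p = 0.0521) and with total counts alone (0.17, adjusted p = 0.0707).

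PDH1 (AT3G30775, chr3:12448636-12451556, minus strand), which proline itself and low osmolarity are known to induce, had CPM of 87.0, 81.6 and 87.7 at 0 °C, 108, 109 and 112 at 4 °C, 106, 100.4 and 102 at 10 °C, and 72.3, 76.0 and 73.4 at 22 °C. With TMM factors all 9 cold libraries were above the 3 at 22 °C. The rise was 0.57 ± 0.037 on the log2 scale at 4 °C and 0.48 ± 0.037 at 10 °C (edgeR, adjusted p = 2.59e-08 and 1.95e-07). At 0 °C the log2 fold change was 0.21 ± 0.038 with TMM factors (adjusted p = 0.00029), but -0.022 (adjusted p = 0.625) with upper quartile factors and -0.20 (adjusted p = 0.000639) with total counts alone, so its direction depends on the scaling. PDH2 made up 25.9%, 9.35%, 12.3% and 11.02% of the counts of both PDH genes on average from 0 to 22 °C, which needs no scaling. The 3 libraries at 0 °C, from 24.8% to 26.7%, were above all others, which had at most 12.45%. The coding sequences of PDH1 and PDH2 share 76.7% of their aligned bases, with a longest identical run of 17 bases.

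**Figure D2:**
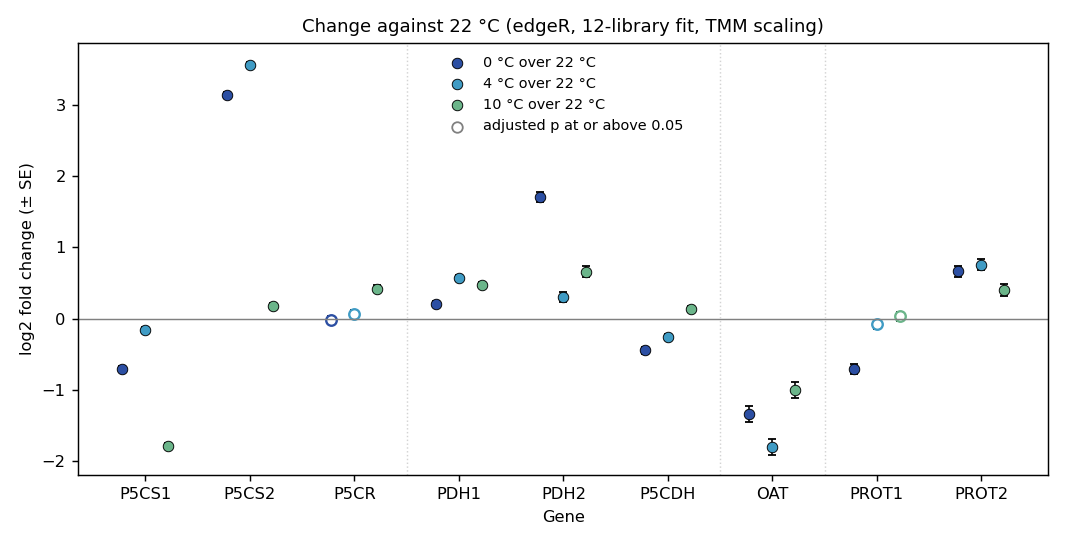
Log2 fold change (± SE) of each of the 9 genes at 0, 4 and 10 °C over 22 °C, from edgeR's fit of 12 libraries with TMM factors. Open points did not pass an adjusted p of 0.05. P5CS2 stands above 3 at 0 and 4 °C, and OAT is at or below -1 throughout. The point of PDH1 at 0 °C (0.21) turns to -0.022 with upper quartile factors and to -0.20 with total counts alone.

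P5CDH (AT5G62530, chr5:25099003-25103312, minus strand), which takes pyrroline-5-carboxylate on to glutamate, did not follow PDH2. Its CPM were 36.6, 37.7 and 40.0 at 0 °C, 44.3, 44.2 and 41.6 at 4 °C, 57.2, 59.4 and 54.9 at 10 °C, and 51.9, 52.9 and 50.9 at 22 °C. The libraries at 0 and 4 °C were below those at 22 °C and the libraries at 10 °C above them. The log2 fold change was -0.45 ± 0.047 at 0 °C, -0.26 ± 0.046 at 4 °C and 0.14 ± 0.045 at 10 °C (edgeR, adjusted p = 2.16e-06, 0.000221 and 0.0171). The call at 10 °C was lost without the first or second library at 10 °C (adjusted p = 0.0556 and 0.0995) and without the third at 22 °C (0.0554).

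The ratio of synthesis to breakdown transcripts was taken within each library as the counts of P5CS1 and P5CS2 over those of PDH1 and PDH2. On the log2 scale it was 4.01, 4.00 and 3.97 at 0 °C, 4.42, 4.39 and 4.27 at 4 °C, 1.49, 1.53 and 1.57 at 10 °C, and 3.06, 2.97 and 2.97 at 22 °C. The libraries at 4 °C were highest, then those at 0 °C, 22 °C and 10 °C, and no temperatures overlapped. Against 22 °C the ratio was 1.99 times as high at 0 °C, 2.56 times at 4 °C and 0.361 times at 10 °C. The exact permutation test over the 12 libraries gave p = 6.49e-05 (0.000455 adjusted over the 14 tests), and each pair had p = 0.1, again the smallest values possible. The 10 °C and the colder libraries were thus on opposite sides of 22 °C. Counts were not divided by length here, so differences between temperatures can be read from this ratio and its level cannot.

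**Figure D3:**
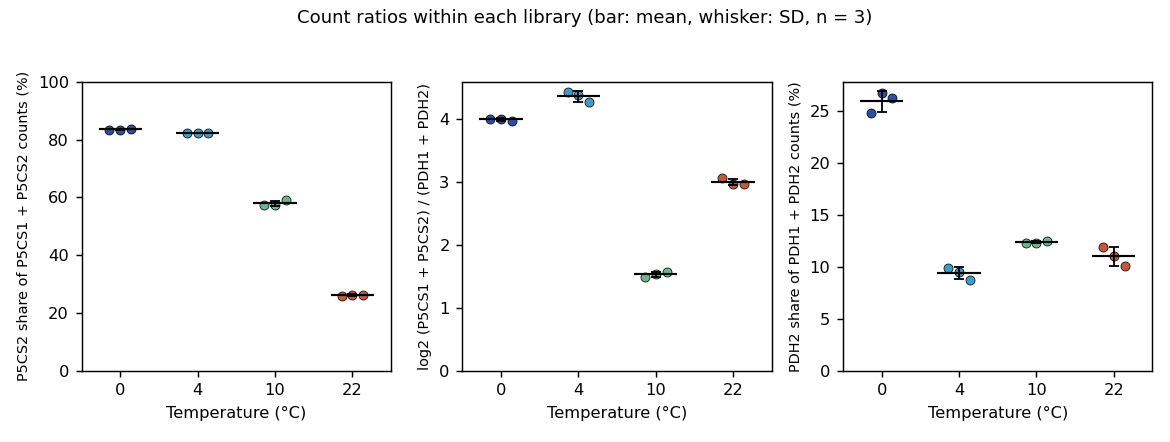
Count ratios within each library at 0, 4, 10 and 22 °C, 1 point per library, with means and SDs (n = 3). Left, the P5CS2 share of P5CS1 and P5CS2 counts, 83.6% on average at 0 °C and 26.1% at 22 °C. Middle, the log2 ratio of P5CS to PDH counts, lowest at 10 °C with a mean of 1.53. Right, the PDH2 share of PDH counts, 25.9% on average at 0 °C and no more than 12.45% in any library at 4, 10 or 22 °C.

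OAT (AT5G46180, chr5:18718417-18721744, minus strand), the mitochondrial enzyme that feeds pyrroline-5-carboxylate from ornithine, fell at all 3 cold temperatures. Its CPM were 11.4, 11.6 and 12.6 at 0 °C, 6.85, 10.2 and 8.93 at 4 °C, 16.1, 14.7 and 14.2 at 10 °C, and 30.3, 31.1 and 28.8 at 22 °C. All 9 cold libraries were below the 3 at 22 °C, and the 4 °C libraries were lowest and spread the most. The log2 fold change against 22 °C was -1.34 ± 0.11 at 0 °C, -1.80 ± 0.11 at 4 °C and -1.004 ± 0.108 at 10 °C (edgeR, adjusted p = 2.80e-07, 1.71e-08 and 4.12e-06). Levels were thus 0.394, 0.286 and 0.499 of that at 22 °C.

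The plasma membrane carriers parted at 0 °C. PROT1 (AT2G39890, chr2:16655577-16658412, plus strand) had 14.6, 13.9 and 16.3 CPM at 0 °C, 22.8, 23.2 and 23.0 at 4 °C, 24.2, 26.5 and 24.0 at 10 °C, and 22.9, 25.7 and 24.5 at 22 °C. The 0 °C libraries alone were low, while the libraries at 4 and 10 °C overlapped those at 22 °C. Its log2 fold change was -0.71 ± 0.069 at 0 °C (edgeR, adjusted p = 1.18e-06), -0.08 ± 0.066 at 4 °C (0.282) and 0.03 ± 0.066 at 10 °C (0.681). With total counts alone the values at 4 and 10 °C were -0.22 (adjusted p = 0.0121) and 0.18 (adjusted p = 0.0311), and with upper quartile factors the value at 4 °C was -0.22 (adjusted p = 0.00991).

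PROT2 (AT3G55740, chr3:20695433-20698292, plus strand) had 25.0, 22.4 and 27.0 CPM at 0 °C, 26.4, 27.6 and 25.5 at 4 °C, 20.1, 19.1 and 22.9 at 10 °C, and 15.9, 15.1 and 16.1 at 22 °C. All cold libraries were above those at 22 °C, and the 0 °C libraries overlapped both those at 4 °C and those at 10 °C. The log2 fold change was 0.66 ± 0.081 at 0 °C, 0.76 ± 0.080 at 4 °C and 0.40 ± 0.080 at 10 °C (edgeR, adjusted p = 1.01e-05, 2.60e-06 and 0.0008). PROT2 made up 62.4%, 53.5%, 45.3% and 39.2% of the counts of both carriers from 0 to 22 °C. The coding sequences of the pair share 81.7% of their aligned bases, with a longest identical run of 26 bases.

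Levels of different genes were set side by side only per kilobase of the main transcript. At 0 °C P5CS2 averaged 558 CPM per kb, followed by P5CS1 at 115, PDH1 at 41.0 and P5CR at 36.1. OAT was lowest of the 9 at 0 °C, at 5.27 CPM per kb. At 22 °C P5CS1 was first at 187 CPM per kb, followed by P5CS2 at 63.2, P5CR at 36.5 and PDH1 at 35.4. P5CR and PDH1 overlapped there (SD 0.508 and 0.906 CPM per kb, n = 3 each). PDH2 had 14.8 CPM per kb at 0 °C and was the lowest of the 9 at 22 °C, at 4.54.

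The cold temperatures were then compared with each other. Between 0 and 4 °C 2 members were higher and 5 lower at 0 °C, where 57.9% of all genes passed (29.2% higher and 28.8% lower). PDH2 (1.40 ± 0.072) and OAT (0.46 ± 0.12) were higher at 0 °C, and P5CS1 (-0.54 ± 0.037), P5CS2 (-0.41 ± 0.038), PDH1 (-0.36 ± 0.038), P5CDH (-0.19 ± 0.047) and PROT1 (-0.62 ± 0.069) were lower. These log2 fold changes had edgeR adjusted p-values between 5.56e-09 and 0.00509. P5CR (-0.09, adjusted p = 0.148) and PROT2 (-0.09, adjusted p = 0.341) did not pass. P5CR gained a call with upper quartile factors (-0.18, adjusted p = 0.00808), total counts alone (-0.36, 3.94e-05) and a filter at a mean of 5 CPM (-0.13, 0.0375). With total counts alone PROT2 gained one (-0.37, adjusted p = 0.0019) and OAT lost its call (0.19, adjusted p = 0.191).

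Between 0 and 10 °C all 9 members passed, 4 higher and 5 lower at 0 °C, where 70.6% of all genes passed (33.9% higher and 36.6% lower). P5CS2 (2.96 ± 0.041), P5CS1 (1.08 ± 0.038) and PDH2 (1.04 ± 0.070) were higher at 0 °C by a log2 unit or more. P5CR (-0.43 ± 0.049), PDH1 (-0.27 ± 0.038), P5CDH (-0.59 ± 0.046), OAT (-0.34 ± 0.11) and PROT1 (-0.74 ± 0.069) were lower. PROT2 was higher at 0 °C by 0.26 ± 0.080 with TMM factors (edgeR, adjusted p = 0.011) but lower with total counts alone (-0.30, adjusted p = 0.00503), and did not pass with upper quartile factors (0.049, adjusted p = 0.591). The call of OAT (adjusted p = 0.0183) was lost without the first or second library at 0 °C (0.0647 and 0.0518) and without the first at 10 °C (0.0884).

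Between 4 and 10 °C 4 members were higher and 4 lower at 4 °C, where 59.9% of all genes passed (29.7% higher and 30.3% lower). P5CS2 was higher at 4 °C by 3.38 ± 0.042, P5CS1 by 1.63 ± 0.038 and PROT2 by 0.36 ± 0.079. P5CR (-0.35 ± 0.048), PDH2 (-0.36 ± 0.072), P5CDH (-0.40 ± 0.045) and OAT (-0.80 ± 0.11) were lower at 4 °C, and these 7 log2 fold changes had edgeR adjusted p-values of at most 0.00194. PDH1 was at the threshold (0.09 ± 0.037, adjusted p = 0.0489), with -0.028 by upper quartile factors and -0.20 by total counts alone. Its call was also lost without any 1 of the 3 libraries at 4 °C (0.0582 to 0.133) and without the second or the third at 10 °C (0.155 and 0.129). PROT1 did not pass with TMM factors (-0.11 ± 0.066, adjusted p = 0.155) but was lower at 4 °C with upper quartile factors (-0.23, adjusted p = 0.00869) and total counts alone (-0.40, adjusted p = 0.00023). The call of PROT2 was lost with total counts alone (0.07, adjusted p = 0.501).

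The deposited counts hold 16 annotated transcripts of these loci, all of which passed the filter among 27262 transcripts. TAIR10.1 has a further transcript of each of PDH1, PDH2, PROT1 and PROT2 that these counts lack. PDH1, PDH2, P5CDH and OAT have a single transcript in the table. For the other 5 genes edgeR's diffSpliceDGE asked whether the share of each transcript in its gene changed. P5CS1 passed against 22 °C at 0, 4 and 10 °C (adjusted p = 0.0239, 0.00116 and 0.0118), where 27.7%, 25.4% and 13.1% of the 4532 genes with several tested transcripts passed. It did not pass between cold temperatures (adjusted p of 0.558 or more), where 8.14% of genes passed for 0 against 4 °C, 15.7% for 0 against 10 °C and 8.27% for 4 against 10 °C.

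Transcript 4 of P5CS1 was the main one, and transcript 2 lacks its exon 3. That exon has 104 bases of coding sequence and lies on the minus strand at chr2:16602269-16602372 of TAIR10.1. Transcript 2, with 19 exons where transcript 4 has 21, also lacks an intron of transcript 4 near the 3′ end. It ends at chr2:16598167, where transcript 4 ends at chr2:16598072. The annotated coding sequence is 2154 bases in transcript 4 and 1845 bases in transcript 2, a difference larger than the exon. Which of these differences the estimated counts of transcript 2 rest on was not tested. The exon is shown in capitals between 15 bases of each neighbouring exon as spliced, and below it the joined neighbours, with capitals for the bases that meet.
P5CS1 transcript 4: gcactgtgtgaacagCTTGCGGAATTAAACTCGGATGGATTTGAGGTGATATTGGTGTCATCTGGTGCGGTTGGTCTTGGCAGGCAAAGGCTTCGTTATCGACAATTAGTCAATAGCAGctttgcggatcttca
P5CS1 transcript 2: gcactgtgtgaacaGCtttgcggatcttca
Transcript 2 held 12.02%, 22.0% and 15.1% of P5CS1 counts at 0 °C, 19.4%, 16.4% and 28.7% at 4 °C, 16.5%, 21.6% and 19.0% at 10 °C, and 7.97%, 8.73% and 13.7% at 22 °C. The libraries at 4 and 10 °C were all above those at 22 °C, whereas those at 0 °C overlapped them. The means were 16.4% ± 5.13, 21.5% ± 6.43, 19.0% ± 2.57 and 10.12% ± 3.09 from 0 to 22 °C (SD, n = 3 each). Its usage relative to the gene was higher than at 22 °C by 0.70 on the log2 scale at 0 °C, 1.09 at 4 °C and 0.92 at 10 °C (diffSpliceDGE, adjusted p = 0.0354, 0.000546 and 0.0103).

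The usage call at 4 °C held without any single library, with adjusted p-values for transcript 2 between 0.000348 and 0.0178. At 0 °C it was lost without the second (0.306) or the third (0.0758) library at 0 °C and without the first (0.213) or second (0.202) at 22 °C. At 10 °C it was lost without the second library at 10 °C (0.0769) and without the first (0.094) or second (0.105) at 22 °C. Transcript 4 held 79.3%, 75.0%, 76.9% and 87.0% of the gene's counts from 0 to 22 °C, and each cold library had at most 82.2% where the libraries at 22 °C had at least 84.2%. Estimated counts divide reads between transcripts by a model, and the reads across these junctions were not used here.

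P5CS2 had a minor transcript, transcript 2, which ends earlier and has 16 exons where the main transcript has 20. It held 0.840%, 0.712% and 0.75% of P5CS2 counts at 0 °C, 0.562%, 0.502% and 0.403% at 4 °C, and 0.690%, 0.227% and 0.688% at 10 °C, and it is listed at 0 in all 3 libraries at 22 °C. A count of 0 allows shares of up to 0.0534%, 0.0440% and 0.0558% in those 3 libraries, by counting error alone with a floor of 3 counts per library. Its mean CPM were at least 132-fold higher at 0 °C, 112-fold at 4 °C and 11.9-fold at 10 °C than that floor at 22 °C. These folds are of CPM and not of shares, and they include the rise of the whole gene (8.84-fold at 0 °C and 11.8-fold at 4 °C). The usage test of P5CS2 passed against 22 °C at all 3 cold temperatures (diffSpliceDGE, adjusted p of 3.62e-06 or less). More than 99% of P5CS2 counts were on the main transcript at each temperature on average, so the level of the gene rests on that transcript.

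**Figure D4:**
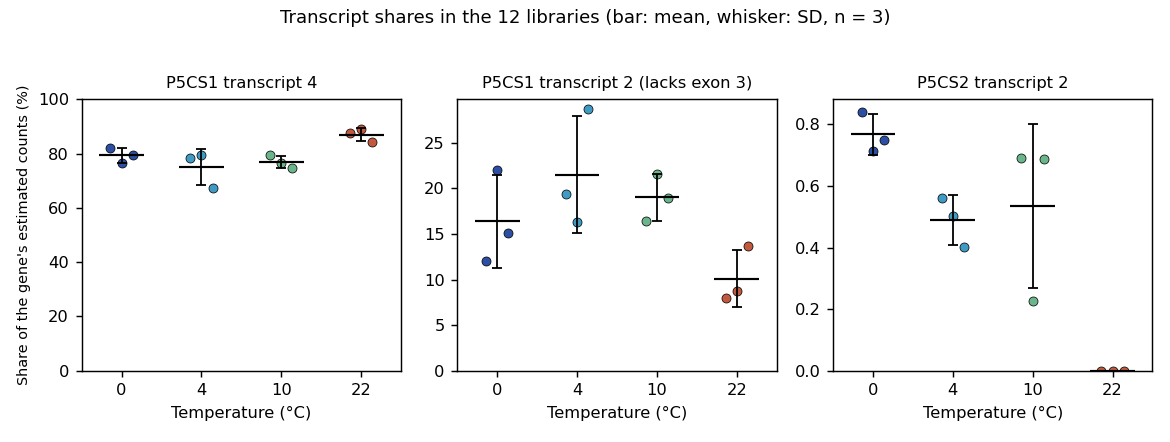
Share of a gene's estimated counts on P5CS1 transcript 4, P5CS1 transcript 2 and P5CS2 transcript 2, at 0, 4, 10 and 22 °C. P5CS1 transcript 2 lacks exon 3 and also differs from transcript 4 at the 3′ end. Points are libraries, with means and SDs (n = 3). P5CS1 transcript 2 averages 16.4%, 21.5% and 19.0% at 0, 4 and 10 °C and 10.12% at 22 °C, and P5CS2 transcript 2 is listed at 0 at 22 °C.

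PROT1 is split between transcripts 1 and 2. Transcript 1 held 49.2% ± 9.12, 40.9% ± 18.8, 71.1% ± 3.80 and 54.5% ± 16.2 of the gene's counts in order from 0 to 22 °C (SD, n = 3 each). Its usage test passed only between 4 and 10 °C (diffSpliceDGE, adjusted p = 0.0208, where 8.27% of genes passed). That call was lost without the second library at 4 °C (0.0821) and without any of the 3 libraries at 10 °C (0.0526 to 0.0898). P5CR and PROT2, each with a main transcript of 92% or more of the counts on average, did not pass in any comparison.

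Genes around the pathway were taken from lists chosen by function. Of 10 other transporters of proline and related amino acids past the filter, 7 were higher and 2 lower at 0 °C and likewise at 4 °C, and 4 were higher and 3 lower at 10 °C, although total counts alone gave 4 higher and 3 lower at 0 °C. Of all genes tested, 35.5% were higher and 38.8% lower at 0 °C, 36.3% and 37.6% at 4 °C, and 32.4% and 32.3% at 10 °C. The number lower at 4 °C was 1 without the second library at 4 °C or the second at 22 °C. Their median log2 fold change was 0.45, 0.51 and 0.05 at 0, 4 and 10 °C. AAP1, an amino acid permease that takes up proline in roots, averaged 341 CPM at 0 °C, against 92.9 CPM at 22 °C (1.88 ± 0.045, edgeR adjusted p = 1.19e-12). AAP5, another permease, averaged 70.6 CPM at 4 °C, against 20.9 CPM at 22 °C (1.76 ± 0.073, adjusted p = 2.68e-10). PROT3, the remaining PROT carrier, averaged 1.70, 4.89, 7.40 and 2.94 CPM from 0 to 22 °C, lower at 0 °C (-0.79 ± 0.17, adjusted p = 0.00114) and higher at 10 °C (1.33 ± 0.15, adjusted p = 6.75e-06). BAC1, a mitochondrial carrier of basic amino acids, was higher at 0 °C (1.17 ± 0.11, adjusted p = 9.31e-07).

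Of 16 genes of ornithine and arginine metabolism, 7 were higher and 5 lower at 0 °C, 8 higher and 6 lower at 4 °C, and 9 higher and 2 lower at 10 °C, where 74.3%, 73.9% and 64.6% of all genes were called. The number lower at 4 °C was 3 without the third library at 22 °C. At 10 °C 1 was lower without the first or second library at 10 °C, or the second or the third at 22 °C, and total counts alone gave 13 higher. The split at 0 °C turned to 5 higher and 9 lower by upper quartile factors, and to 3 higher and 11 lower by total counts alone. The median log2 fold change was 0.11, 0.13 and 0.46 from 0 to 10 °C. ADC2, an arginine decarboxylase of polyamine synthesis, averaged 1062, 852, 394 and 197 CPM from 0 to 22 °C and passed at each cold temperature (2.43 ± 0.054 at 0 °C, edgeR adjusted p = 5.48e-13). Its paralog ADC1 was highest at 4 °C (1.81 ± 0.089, adjusted p = 1.42e-09). ARGAH2, an arginase that releases the ornithine used by OAT, fell to 19.8 CPM at 4 °C, against 72.5 CPM at 22 °C (-1.88 ± 0.047, adjusted p = 2.35e-12). ASS, argininosuccinate synthase, averaged 99.0 CPM at 10 °C, against 41.1 CPM at 22 °C (1.27 ± 0.029, adjusted p = 2.02e-12).

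Of 15 genes of glutamate and glutamine metabolism, 5 were higher and 5 lower at 0 °C, 8 higher and 4 lower at 4 °C, and 6 higher and 6 lower at 10 °C, where 74.3%, 73.9% and 64.6% of all genes were called. The medians were -0.10, 0.19 and 0.35. At 0 °C upper quartile factors gave 4 higher and 8 lower. By total counts alone 3 were higher and 10 lower at 0 °C. GLN1;1, a cytosolic glutamine synthetase, rose to 441 CPM at 0 °C, against 104 CPM at 22 °C (2.08 ± 0.031, edgeR adjusted p = 1.58e-14). ASN1, a glutamine-dependent asparagine synthetase that is induced in darkness and by sugar shortage, averaged 228, 35.6, 25.0 and 244 CPM from 0 to 22 °C. It fell at 4 °C (-2.78 ± 0.054, adjusted p = 1.90e-13) and 10 °C (-3.28 ± 0.055, adjusted p = 1.87e-13) and did not pass at 0 °C with TMM factors (-0.10 ± 0.049, adjusted p = 0.0914). GDH1, a glutamate dehydrogenase, fell by 1.40 ± 0.036 at 10 °C (adjusted p = 5.37e-12), and GDH3, at 0.675 CPM at 10 °C against 0.164 CPM in the 22 °C libraries, rose by 2.00 ± 0.39 (adjusted p = 0.000599).

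The bZIP factors of groups C and S1 are known to act on PDH1, PDH2 and ASN1. Of 7 tested, 5 were higher and 2 lower at 0 °C, 3 higher and 4 lower at 4 °C, and 2 higher and 4 lower at 10 °C, with medians of 0.48, -0.34 and -0.70. Of all genes, 74.3%, 73.9% and 64.6% were called in the same comparisons. By total counts alone 3 were higher and 3 lower at 0 °C. BZIP11 averaged 103, 24.4, 45.9 and 10.4 CPM from 0 to 22 °C (3.31 ± 0.046 at 0 °C, edgeR adjusted p = 7.72e-15). BZIP44 averaged 79.9, 63.2, 20.3 and 8.47 CPM from 0 to 22 °C (3.24 ± 0.060 at 0 °C, adjusted p = 1.11e-13). BZIP1 averaged 86.7, 6.08, 5.29 and 27.8 CPM from 0 to 22 °C, higher at 0 °C (1.64 ± 0.11, adjusted p = 3.60e-08) and lower at 10 °C (-2.39 ± 0.13, adjusted p = 4.58e-09). BZIP63 was lower at all 3 cold temperatures (-1.94 ± 0.076 at 4 °C, adjusted p = 1.49e-10). Its means at 4 and 10 °C were 16.6 and 17.2 CPM, and the libraries at these temperatures overlapped. BZIP2 and BZIP53, also on the list, were absent from the annotated loci of the deposited counts and could not be analysed.

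**Figure D5:**
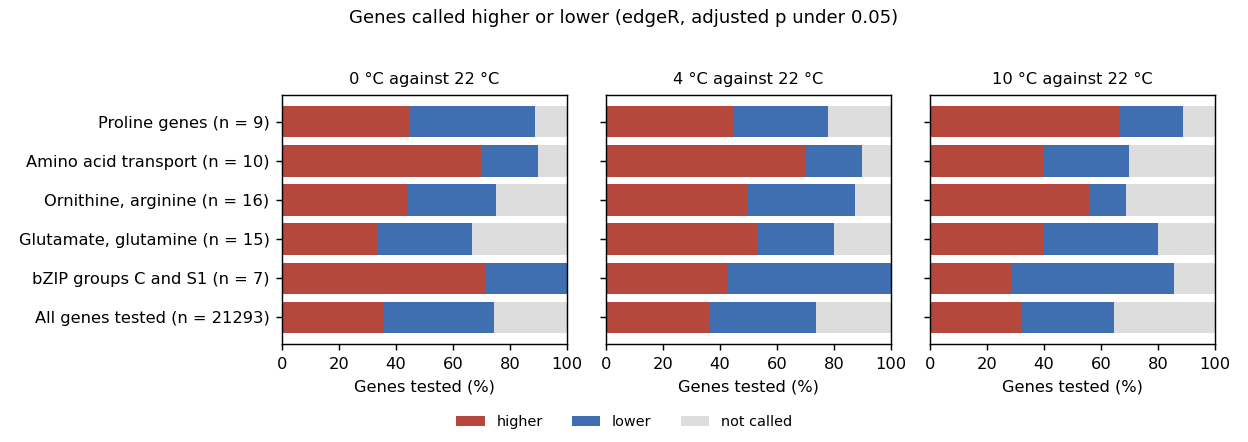
Percentage of tested genes called higher, lower or not called (edgeR, adjusted p under 0.05) at 0, 4 and 10 °C against 22 °C, for the 9 proline genes, the 4 lists around them and all 21293 genes tested. The proline genes had 4, 4 and 6 rises and 4, 3 and 2 falls at 0, 4 and 10 °C, including PDH1 at 0 °C, whose direction depends on the scaling. Numbers of genes are beside the bars, and total counts alone in place of TMM factors turned the split of ornithine and arginine genes at 0 °C to 3 higher and 11 lower.

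The genes whose pattern was most like that of a member were found by Pearson's r of log2(CPM + 1) over the 12 libraries, among the 14392 genes that averaged 5 CPM or more, and they are given as a description with no test. The libraries share 4 temperatures, so high values are common. P5CS2 had 403 genes above 0.95, led by AT2G24560 and AT3G57020 (both 0.998), and P5CS1 had 16, led by AT2G41250 (0.985) and SIGC (0.984), a sigma factor of the plastid RNA polymerase. PDH1 was closest to AT1G75710 (0.989) and CYP707A2 (0.985), an abscisic acid hydroxylase, and PDH2 to SHM7 (0.992) and SRF7 (0.990). OAT was closest to ATL15 (0.990) and AT2G01610 (0.989), P5CDH to AT1G53040 (0.987) and AT4G33770 (0.983), and P5CR to LTP6 (0.978) and AT4G28360 (0.973). PROT1 was closest to AT4G39955 (0.983) and AT3G03570 (0.982), and PROT2 to AT4G33400 (0.979) and AT3G04130 (0.977). By Spearman's rho 1 of these 18 genes, AT3G03570, was again among the 2 closest to its member. Among the members themselves the highest r was 0.86, between P5CS2 and PROT2, and the lowest was -0.93, between OAT and PROT2. P5CS1 and P5CS2 had an r of 0.32.

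The libraries held 32870040 to 41683299 estimated counts, and 1 count of a gene was worth 0.027 to 0.0346 CPM before scaling by the TMM factors. Root and leaf markers were present in every group. The sum of 5 root markers was between 2029 and 2082 CPM at 0 °C, 1826 and 1902 at 4 °C, 2682 and 2838 at 10 °C, and 2824 and 2925 in the controls, and it was almost all PYK10, at 2025, 1833, 2699 and 2808 CPM on average from 0 to 22 °C. Other root markers had other orders: EXPA18, of root hairs, averaged 1.43, 6.26, 10.38 and 6.30 CPM and CASP1, of the endodermis, 27.1, 14.9, 18.8 and 29.9 CPM from 0 to 22 °C. Summed floral markers were 4.47 CPM or less in every library, with AP1 at 0.827, 0.471, 0.364 and 0.0781 CPM from 0 to 22 °C. Summed seed markers were 2.14 to 2.30 CPM at 0 °C, 0.635 to 0.901 at 4 °C, 1.88 to 2.83 at 10 °C and 0.342 to 0.595 at 22 °C. CRA1, a seed storage protein, was higher at 0 °C (1.61 CPM, edgeR adjusted p = 4.24e-05) and 10 °C (1.58 CPM, adjusted p = 5.31e-05) than at 22 °C (0.359 CPM), and SESA1 is listed at 0 in all libraries at 4 and 22 °C. The part of these markers in the changes above was not tested. The groups of 3 libraries did not overlap for 8 of the 9 members against 22 °C at each of 0, 4 and 10 °C, where 76.4%, 76.2% and 71.5% of all genes did not. Between 0 and 4 °C and between 0 and 10 °C this held for 8, and between 4 and 10 °C for all 9, where 61.9%, 74.8% and 66.6% of all genes did not overlap.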

How the data were processed

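Paired-end RNA sequencing of whole plantlets gave 12 libraries, 3 at each of 0, 4, 10 and 22 °C, grouped by the labels. The authors deposited estimated counts per transcript (fractions of a read occur) and CPM values, which recomputing from those counts matched within 5.09e-11. Per the submitters' processing notes, HISAT2 2.2.0, kallisto 0.42.4, edgeR and build TAIR10 were used, and the role of each and the use of strand are not given in the sources used here. The deposited table had 56132 transcripts, of which 41623 belong to annotated loci. Assembled transcripts with no map to loci, 9.79% to 12.2% of a library's counts, may hold reads of these genes. The table had 6 columns that match no sample and were not used.

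Estimated counts were summed per locus, rounded, filtered with filterByExpr and tested with edgeR 4.0.16 in R 4.3.3 (glmQLFit and glmQLFTest, TMM factors of 0.792 to 1.19) in a fit of 12 libraries with a mean per temperature. Benjamini-Hochberg adjustment ran over 21293 genes, and an adjusted p under 0.05 was called. SEs are approximate, from the fold change and the F statistic. Transcript usage was tested with diffSpliceDGE, and ratios within libraries with exact permutation tests. Scripts were tested on simulated data. Names, structures and promoters came from TAIR10.1, of which the annotation was used by locus, since the deposited tables hold no coordinates. The protein sequences were not used here.

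The members and lists were chosen with earlier results of these data known. Named are all 9 members, of each other list the up to 4 called genes with the largest log2 fold change against 22 °C, and the 2 genes most alike each member. No pairing of libraries by replicate number was seen, though 3 libraries per temperature cannot exclude it. Counting intervals and floors cover counting error only. Alternatives were DESeq2 1.42.0, other factors and filters, fewer samples and a replicate block. Leaving out libraries in the usage test, and all alternatives of the lists, were added after seeing the data.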

Additional observations from a re-analysis of the deposited data

How the results depend on the processing

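Across the alternatives, 774 of 810 log2 fold changes of the 9 members kept their side of the threshold and, where called, their direction. Another 20 lost a call, 11 gained one and 5 reversed. PDH1 at 0 against 22 °C was -0.022 (upper quartile factors) and -0.20 (total counts alone), PDH1 at 4 against 10 °C was -0.028 and -0.20, and PROT2 at 0 against 10 °C was -0.30 with total counts alone. Changes of sign between values that were not called are not counted as reversals. Leaving out single libraries gave such changes for P5CR at 0 against 22 °C (up to 0.012) and PROT1 at 10 against 22 °C (down to -0.020). With total counts alone the median over all genes tested shifted, on the log2 scale, by -0.41, -0.14 and 0.15 at 0, 4 and 10 °C against 22 °C, and by -0.28, -0.57 and -0.29 for 0 against 4, 0 against 10 and 4 against 10 °C. With upper quartile factors it shifted by -0.23 at 0 °C and -0.14 at 4 °C against 22 °C, by -0.21 for 0 against 10 °C and by -0.12 for 4 against 10 °C. Among called genes at 0 against 22 °C, 47.8% were higher by TMM, 35.4% by upper quartile and 27.6% by total counts. For 10 against 22 °C this was 50.1%, 48.6% and 61.6%, for 0 against 4 °C 50.3%, 41.2% and 26.2%, for 0 against 10 °C 48.1%, 35.2% and 19.9%, and for 4 against 10 °C 49.5%, 37.7% and 24.1%. Other factors move all genes by nearly the same amount, so these values cannot decide the direction of PDH1 or PROT2.

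No clear pairing by number was seen: deviations of same-numbered libraries correlated between -0.16 and 0.38, and a library correlated best with its own number in 5 of 18 cases. With 3 libraries per temperature this check cannot exclude pairs. With the replicate number as a block, 15686 genes were called at 0 °C, 15592 at 4 °C and 13563 at 10 °C against 22 °C, PDH1 at 4 against 10 °C lost its call (adjusted p = 0.0687), PROT1 usage at 4 against 10 °C lost its call (0.0548), and the other member calls were unaltered. Leaving out single libraries gave 8 to 9 members called for 0 against 10 °C, 7 to 8 for 10 against 22 °C and for 4 against 10 °C, and the main number elsewhere. It gave 240 to 318 genes with changed usage at 4 against 10 °C, where all libraries gave 375, and the cause was not tested. The permutation p of the within-library ratios is already the smallest possible and cannot show their stability. Without the filter on low counts, usage of P5CS1 transcript 2 at 0 °C had an adjusted p of 0.0538. Depth limits genes such as GDH3, at 0.164 CPM at 22 °C.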
